A study of Homo sapiens with 4 samples.

Results

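At the starts of long non-coding RNA (lncRNA) genes, 458 intervals were listed as bound by full-length SOX2 and not by its DNA-binding domain alone. They were taken from a list of 57907 SOX2 intervals, of which 43607 were listed for full-length SOX2 only and 14300 were shared with the DNA-binding domain of SOX2 at identical positions. A full-length-only interval was counted here when its centre lay within 1 kb of an annotated transcript start of a lncRNA gene and more than 1 kb from every transcript start of a protein-coding gene. Such intervals made up 1.05% of the full-length-only intervals (Wilson 95% interval 0.959 to 1.15), and 0 of the 458 overlapped an interval of the DNA-binding domain by even 1 bp. The intervals were chosen by these measured values, their absence from the second list and their position near a start, so neither is a result.

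The sites come from CUT&RUN, a method that cuts out and sequences the DNA around an antibody-marked protein. BJ cells, an established line of human foreskin fibroblasts, had ectopically expressed either V5-tagged full-length SOX2 or the V5-tagged domain (SOX2-DBD) for 48 h, and the antibody recognised the V5 tag. The 4 samples formed 2 groups of 2, and the lists used here carry the label of replicate 1. Whether a list was called on that replicate alone is not given in the sources used here, and replicate 2 was not analysed here, so no value carries an error between replicates and no p-value is given. The vector and promoter that drove expression, the sequencing depth and the signal scale are likewise not given in the sources used here. Intervals on shares, densities and medians cover counting error over sites, which are not replicates.

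SOX2 is a transcription factor of stem cells and the neural lineage. It binds DNA through a high-mobility-group box that reads a short A/T-rich core, and it is called a pioneer factor because it can engage its sites on nucleosomes. The DNA-binding domain alone keeps this box and lacks the flanking regions, among them the part that activates transcription. Long non-coding RNAs are transcripts without a long reading frame. Many start near or antisense to protein-coding genes, others serve as hosts of microRNAs or small nucleolar RNAs, and many have an annotated start that rests on few transcripts.

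The sequences below show where the SOX core, present in 208 of the 458 central windows (45.4%, beside 46.9% of all full-length-only intervals), stood in some of the named intervals. The set was not drawn to represent the 458, of which 233 had neither the SOX core nor the AP-1 motif in the window. Each sequence is the 200 bases around the centre of an interval, read 5′ to 3′ on the forward strand of the GRCh37 reference with hg19 coordinates. Capitals mark the SOX core, searched as ACAAAG and ACAATG on both strands, so that CTTTGT and CATTGT are its reverse forms. The first set holds 2 of the 8 intervals with the highest total signal, and for LINC03017 also the 200 bases around its annotated start, to set the bound stretch beside the start it was assigned to.

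LINC03017 centre, chr7:84177974-84178173: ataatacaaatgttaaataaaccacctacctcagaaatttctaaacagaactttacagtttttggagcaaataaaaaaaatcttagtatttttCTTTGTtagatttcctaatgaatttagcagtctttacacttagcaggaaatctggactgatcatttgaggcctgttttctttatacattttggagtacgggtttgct
LINC03017 annotated start, chr7:84178422-84178621: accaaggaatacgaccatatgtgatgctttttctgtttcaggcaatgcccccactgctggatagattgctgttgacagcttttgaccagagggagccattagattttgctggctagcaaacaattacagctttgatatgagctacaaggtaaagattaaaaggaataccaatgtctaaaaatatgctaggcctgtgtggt
SCN1A-AS1 centre, chr2:166837806-166838005: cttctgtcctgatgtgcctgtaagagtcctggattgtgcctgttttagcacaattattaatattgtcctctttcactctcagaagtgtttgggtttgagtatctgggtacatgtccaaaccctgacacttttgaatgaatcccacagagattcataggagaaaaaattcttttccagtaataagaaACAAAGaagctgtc

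The LINC03017 centre had a GC content of 30.5% and 1 SOX core, whereas the bases at its start had a GC content of 41.5% and no SOX core. The next sequences are the interval whose centre was nearest to a start (ENSG00000283045), an interval at a microRNA host gene expressed in mesenchymal cells (MIR100HG), and an interval at the antisense transcript TARID, which was chosen after its values were seen.

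ENSG00000283045 centre, chr17:42564081-42564280: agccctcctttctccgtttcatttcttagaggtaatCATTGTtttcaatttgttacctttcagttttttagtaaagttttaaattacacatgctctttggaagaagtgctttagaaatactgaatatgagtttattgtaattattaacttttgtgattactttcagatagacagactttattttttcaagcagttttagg
MIR100HG centre, chr11:121937738-121937937: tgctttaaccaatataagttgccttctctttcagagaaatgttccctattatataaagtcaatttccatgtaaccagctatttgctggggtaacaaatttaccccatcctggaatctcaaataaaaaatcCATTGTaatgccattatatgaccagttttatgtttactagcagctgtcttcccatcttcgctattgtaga
TARID centre, chr6:134167907-134168106: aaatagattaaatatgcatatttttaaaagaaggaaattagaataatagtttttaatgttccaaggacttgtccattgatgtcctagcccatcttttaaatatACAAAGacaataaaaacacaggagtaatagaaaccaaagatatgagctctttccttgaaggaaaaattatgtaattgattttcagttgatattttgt

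In 2 of the 458 windows (0.437%, 0.120 to 1.58) the SOX core stood together with the octamer ATGCAAAT, the sequence read by POU factors such as OCT4. The joint share over all full-length-only intervals was not computed, so this count is not read as a result. The octamer alone was in 3.06% of the 458 windows, beside 3.04% of all full-length-only intervals. Both windows are shown with both motifs in capitals.

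ENSG00000249753 centre, chr12:64190325-64190524: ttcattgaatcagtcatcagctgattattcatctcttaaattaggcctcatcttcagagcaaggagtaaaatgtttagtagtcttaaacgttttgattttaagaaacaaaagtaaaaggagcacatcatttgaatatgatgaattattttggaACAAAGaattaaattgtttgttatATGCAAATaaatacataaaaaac
ENSG00000235726 centre, chr2:235821322-235821521: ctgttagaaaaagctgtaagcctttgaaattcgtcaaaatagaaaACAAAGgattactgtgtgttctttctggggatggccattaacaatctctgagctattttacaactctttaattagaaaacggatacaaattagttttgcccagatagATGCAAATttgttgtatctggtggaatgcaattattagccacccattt

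The interval with the highest total signal is shown as the contrast. Its central window had no SOX core, while the whole interval held 6.

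ENSG00000288008 centre, chr5:124331941-124332140: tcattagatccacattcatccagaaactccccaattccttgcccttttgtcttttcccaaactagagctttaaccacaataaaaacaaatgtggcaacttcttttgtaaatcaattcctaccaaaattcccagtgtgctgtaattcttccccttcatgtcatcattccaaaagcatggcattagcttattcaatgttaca

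The 458 intervals lay nearest to 438 lncRNA genes, and 19 of these genes had more than 1 of them. Of 15359 lncRNA genes with at least 1 start more than 1 kb from coding starts, 429 (2.79%, 2.54 to 3.07) had one as nearest gene. The names and transcripts of the nearest genes are given as a description, because their shares over all eligible lncRNA genes were not computed. The nearest gene carried only a clone or Ensembl identifier for 288 intervals (62.9%), a LINC name for 73 (15.9%), and an antisense, intronic, overlapping or divergent name for 69 (15.1%). MicroRNA host genes accounted for 4 intervals, small nucleolar RNA host genes for 2, and other names for 22. The nearest gene had a single annotated transcript for 242 intervals (52.8%). The start was that of the gene record in 295 cases (64.4%) and lay more than 1 kb inside it in 138 (30.1%). GENCODE gave the best support level to 16 of these transcripts and no level to 195. The 458 are therefore positions near annotated starts, and whether those starts were used in BJ cells was not measured.

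Some of the 458 lay at lncRNAs of the gene lists. Of 25 eligible neural and pluripotency lncRNAs, 2 had such an interval, MEG8 and MIR99AHG. Of 25 mesenchymal and fibroblast lncRNAs, 2 had one, MIR100HG and CDKN2B-AS1, and of 29 widely expressed lncRNAs, 2 had one, SNHG14 and SNHG16. These lists were small, and the counts stand beside the 429 of 15359 (2.79%) of all eligible lncRNA genes. Each list lay above that share, on counts of 2 genes. The genes named had 18 to 258 annotated transcripts, against a median of 1 over the 458, and so offered more starts to the rule. All their intervals lay at internal transcript starts, from 3309 bp (SNHG16) to 547595 bp (MIR99AHG) from the start of the gene record.

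MIR100HG, the host gene of miR-100 and let-7a-2, had 2 full-length-only intervals at separate internal starts, 103032 and 489215 bp from the start of the gene record. The interval at chr11:122323752-122324540 had a total signal of 3885, and the one at chr11:121937672-121938003 had 2296. Total signal is the authors' value summed over an interval, on a scale that is not stated, and 3885 stood at the 84.3rd percentile of all full-length-only intervals while 2296 stood at the 50.7th. The gene body held 21 full-length-only intervals and 14 shared ones. MIR99AHG, the host gene of miR-99a and let-7c on chromosome 21, had 1 start interval at chr21:17847370-17847937 with a total signal of 1981 and 3 SOX cores. Its body held 27 full-length-only and 10 shared intervals, so at both microRNA host genes the start intervals were a small part of the intervals along the gene.

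MEG8, a maternally expressed transcript of the imprinted DLK1-DIO3 region, had 2 intervals. The one at chr14:101446098-101446704 had a total signal of 3002, no SOX core and 1 AP-1 motif, and the one at chr14:101403634-101404039 had a total signal of 1590 and 1 SOX core. All 7 SOX2 intervals in the MEG8 body were full-length-only. CDKN2B-AS1, the antisense transcript of the CDKN2A-CDKN2B tumour suppressor locus, had an interval at chr9:22116880-22117392 with a total signal of 2750 and no SOX core. SNHG14 is the long imprinted transcript that runs antisense to UBE3A. Its interval at chr15:25623584-25623974 lay inside UBE3A with a total signal of 1622 and no SOX core. The interval of SNHG16, chr17:74557718-74558180, had a total signal of 1917 and no SOX core. Each of these intervals except that of MIR100HG at 3885 overlapped an interval of the down-sampled SOX2 list.

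Some antisense and neighbouring transcripts of developmental genes were chosen for description after their values were seen. TARID runs beside TCF21, a factor of mesenchymal progenitors, and its interval at chr6:134167526-134168487 had a total signal of 5175 and 4 SOX cores. NR2F1-AS1, divergent from the nuclear receptor gene NR2F1, had an interval with a total signal of 3363 and no SOX core, 18358 bp from the nearest coding start. BDNF-AS, antisense to the neurotrophin gene BDNF, had one with a total signal of 2430 and 3 SOX cores. CRNDE, which lies beside the homeobox gene IRX5, had one with a total signal of 3266 and 4 SOX cores, 4036 bp from the nearest coding start. TEX41, a neighbour of ZEB2, had 2 intervals with totals of 4096 and 1488. In this group too the starts were internal, from 1463 bp (CRNDE) to 133059 bp (BDNF-AS) from the start of the gene record.

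The 8 intervals with the highest total signal reached from 7477 to 14001, against a median of 2203.5 over the 458. ENSG00000288008 on chromosome 5 was the highest, with 14001 over 2284 bp, and it stood 247541 bp from the nearest coding start, that of ZNF608. LINC03017 followed with 9650 over 2284 bp, 56034 bp from the start of SEMA3A, which encodes a guidance cue for axons. ENSG00000258892 inside MNAT1 had 8875, ENSG00000286619 near PM20D1 had 8769, and ENSG00000282057 inside DDAH1 had 8390. ENSG00000250519 near PANX1 had 7923, and SCN1A-AS1, antisense to the neuronal sodium channel gene SCN1A, had 7477. The body of SCN1A-AS1 held 17 full-length-only and 7 shared intervals.

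MUC20-OT1 stood apart in shape. Its 7565 lay within 580 bp and its maximum signal of 41 was the highest of the 458, whose median maximum was 10. The other 7 of the highest intervals were 1244 to 2284 bp wide with maxima of 13 to 17. Of the 31-mers in the MUC20-OT1 interval, 8.55% occur more than once in the genome.

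**Figure D1:**
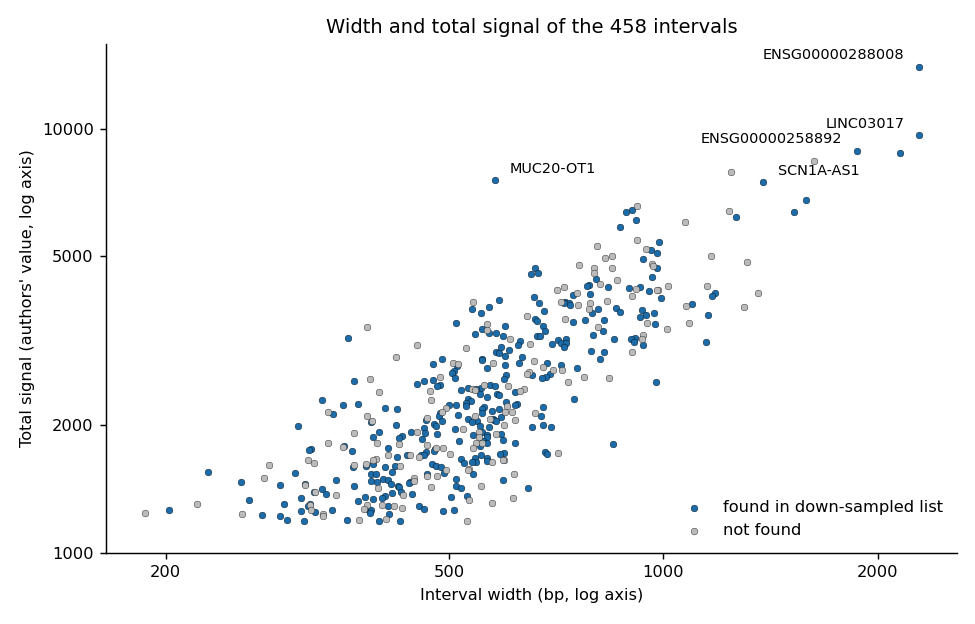
Each point is 1 of the 458 intervals, with its width in bp on the x axis and the authors' total signal on the y axis, both on log axes. Blue points overlapped an interval of the down-sampled list and grey points did not; MUC20-OT1 lies above the band with 7565 over 580 bp.

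Among genes with several intervals, ENSG00000224819 on chromosome 2 had 3, with totals of 4219, 2796 and 1598. ENSG00000226149, near the laminin gene LAMA2, had 2 with totals of 4695 and 3260. PCAT1 had 2 with totals of 4085 and 2537, LINC01905 had 2 with totals of 3755 and 2530, and MIR100HG had the 2 given above. Of the 438 genes, 20 (4.57%) also had a shared interval at a start, which is 8.81% of the 227 genes with a shared start interval.

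The positions did not gather at the start itself. Within 250 bp of the start lay 105 centres, then 111 from 250 bp to under 500 bp, 119 from there to under 750 bp and 123 from there to 1000 bp. Upstream lay 238 (52.0%, 47.4 to 56.5), and 124 intervals (27.1%) covered the start they were nearest to. Per 100 bp the counts upstream ran between 20 and 28 and were 28 in the last 100 bp before the start. Downstream they were 15, 17 and 16 in the first 300 bp and 28 in each of the last 2 steps.

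**Figure D2:**
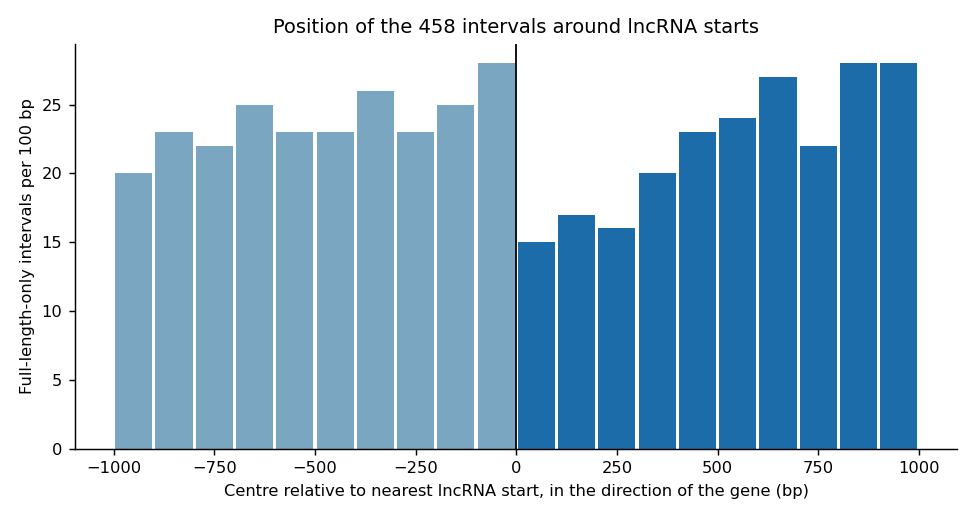
The bars count the 458 interval centres in steps of 100 bp (y axis) by their position relative to the nearest lncRNA start in the direction of the gene (x axis, bp). The count falls from 28 in the 100 bp before the start to 15 in the 100 bp after it.

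The nearest to a start were ENSG00000283045, 2 bp downstream, and LINC01878 and ENSG00000286289, each 6 bp upstream. Their totals were 1903, 1567 and 2692. Over the 105 sites within 250 bp the median total was 2302, against 2203.5 over the 458. Just inside the 1 kb limit stood ENSG00000290551 at 1000 bp with a total of 1813, GOLGA2P5 at 999 bp with 1674 and ENSG00000287278 at 997 bp with 4170. Just outside stood ENSG00000249198 at 1002 bp with 1981, RC3H1-IT1 at 1004 bp with 1642 and ENSG00000272990 at 1004 bp with 2335. At the limit towards coding starts, ANKRD44-DT at 1062 bp was the nearest kept, and the interval of ENSG00000285948, 983 bp from the start of SCG5, was the nearest left out.

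Counted against the sequence available more than 1 kb from coding starts, full-length-only intervals were thinner near lncRNA starts than farther away. There were 9.07 per Mb within 250 bp (exact Poisson 95% interval 7.42 to 11), 12.2 per Mb at 750 to 1000 bp (10.1 to 14.5) and 16.0 per Mb at 10 to 50 kb (15.7 to 16.2). Over the whole kilobase the density was 10.9 per Mb (9.89 to 11.9), against 15.4 per Mb (15.2 to 15.5) beyond 1 kb. Both sides lay below the density beyond 1 kb, with 6.66 per Mb (4.74 to 9.11) in the first 250 bp downstream and 11.5 per Mb (8.92 to 14.7) in the 250 bp upstream. The 95% intervals of the 2 sides overlap only from 8.92 to 9.11, and the difference between the sides was not tested. Shared intervals ran the other way, with 7.52 per Mb (6.02 to 9.27) within 250 bp and 4.96 per Mb (4.87 to 5.04) beyond 1 kb.

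Base composition moved with distance as well. The mean GC content of the available bases was 47.0% within 250 bp of a lncRNA start and 39.4% beyond 50 kb, and bases whose 200-bp surroundings had 30 to 40% GC made up 24.4% of the former. Among such bases alone, an alternative added after the data were seen, full-length-only intervals stood at 25.9 per Mb (20.3 to 32.6) within 250 bp and at 27.5 per Mb (24.7 to 30.6) within 1 kb, against 27.6 per Mb (27.3 to 27.9) beyond 1 kb. The ratio of the density within 1 kb to that beyond went from 0.707 (0.645 to 0.775) over all bases to 0.997 (0.895 to 1.11). For shared intervals within 250 bp the same ratio was 1.52 (1.23 to 1.87) over all bases and 2.37 (1.84 to 3.07) at 30 to 40% GC. Within 250 bp the ratio for full-length-only intervals was 0.590 (0.487 to 0.715) over all bases and 0.938 (0.745 to 1.18) at 30 to 40% GC. On the downstream side alone the density in that band was 21.1 per Mb (14.1 to 30.3) within 250 bp, and on the upstream side 30.4 per Mb (22.1 to 40.8). The part of base composition in the densities beyond this single band was not tested.

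**Figure D3:**
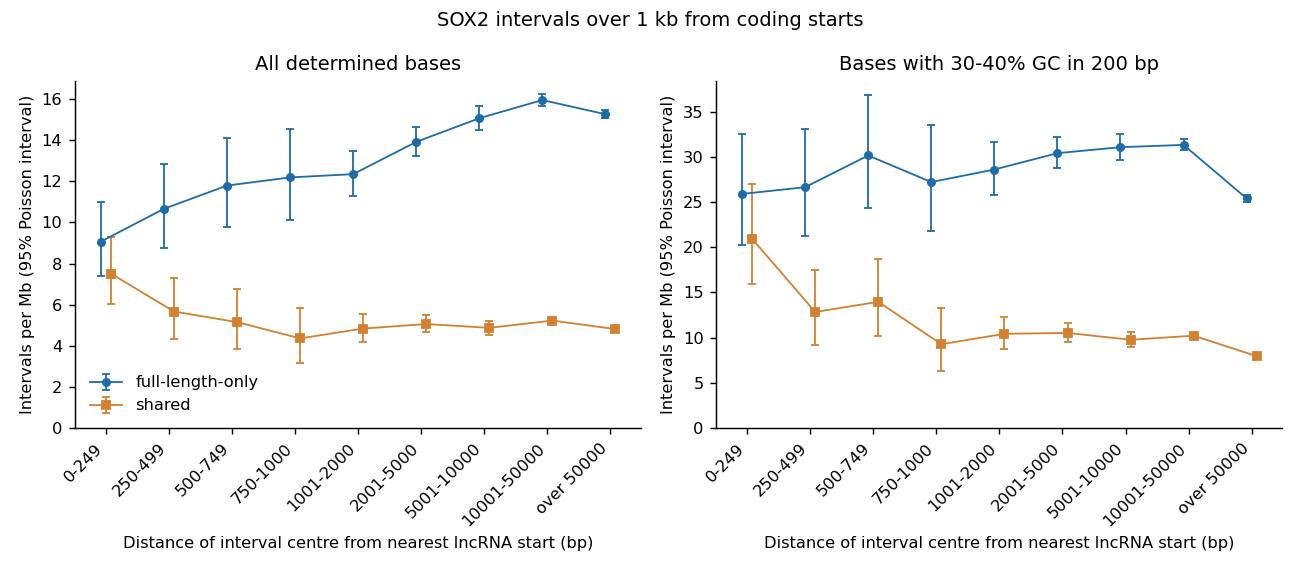
Intervals per Mb of available sequence (y axis) by the distance of the centre from the nearest lncRNA start (x axis, bp), for full-length-only (blue) and shared (orange) intervals more than 1 kb from coding starts, with exact Poisson 95% intervals. Over all bases the full-length-only density is 9.07 per Mb in the nearest class. Among bases of 30 to 40% GC it is 25.9 per Mb there and 27.6 per Mb over all distances beyond 1 kb pooled.

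The bound stretches were poor in G and C. The median GC content of the 200-bp centres was 33.5% (quartiles 30.5 and 36.5), equal to that of full-length-only intervals with no start within 1 kb, and the highest of the 458 was 45%. Starts of lncRNA genes over the genome had a median of 49.0%. In the 373 intervals whose start lay at least 200 bp away, the centre had a median of 33.0%, the interval's own start 41.0%, and the position mirrored across the start 39.0%. At least 5 CpG dinucleotides were present in 0 of 458 windows (upper limit 0.832%), beside 0.204% of all full-length-only intervals, 1.49% of those at coding starts and 3.31% of shared intervals at lncRNA starts. The difference from full-length-only intervals with no start within 1 kb, -0.150 points (-0.192 to 0.682), includes 0.

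The SOX core was more frequent at the sites than at the starts. It occurred in 208 of the 458 windows (45.4%, 40.9 to 50), beside 46.9% of all full-length-only intervals, 46.3% of full-length-only intervals at coding starts and 46.3% of shared intervals at lncRNA starts. Windows 10 kb from the same sites towards higher coordinates, whatever the strand of the gene, had it in 27.3%. This was lower by 18.1 percentage points (Newcombe 95% interval 11.9 to 24.1). It occurred in 24.8% of the windows at 37832 lncRNA starts. In the 373 intervals with a start at least 200 bp away, 44% of centres and 27.9% of their own starts had the core, a difference of 16.1 points (9.22 to 22.7). The mirrored position had it in 30.3%. The windows compared differ in GC content as given above, and its part in these differences was not tested.

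Counted along the sequence, there were 15.8 SOX cores per 50 bp and 100 windows within 200 bp of the centre and 8.68 at 300 to 500 bp from it. The ratio was 1.82, beside 1.63 for full-length-only intervals with no start within 1 kb. Around the lncRNA starts of the same 458 intervals the counts were 10.2 and 10.1, a ratio of 1.01. Over whole intervals, 83 had no SOX core, 143 had 1, 109 had 2, 70 had 3, 27 had 4, 17 had 5 and 9 had 6 or more. The most were 7, in ENSG00000257373 with a total of 6200 and in ENSG00000254099 with 3800, followed by 7 intervals with 6 each, of which ENSG00000288008 had the highest total signal.

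**Figure D4:**
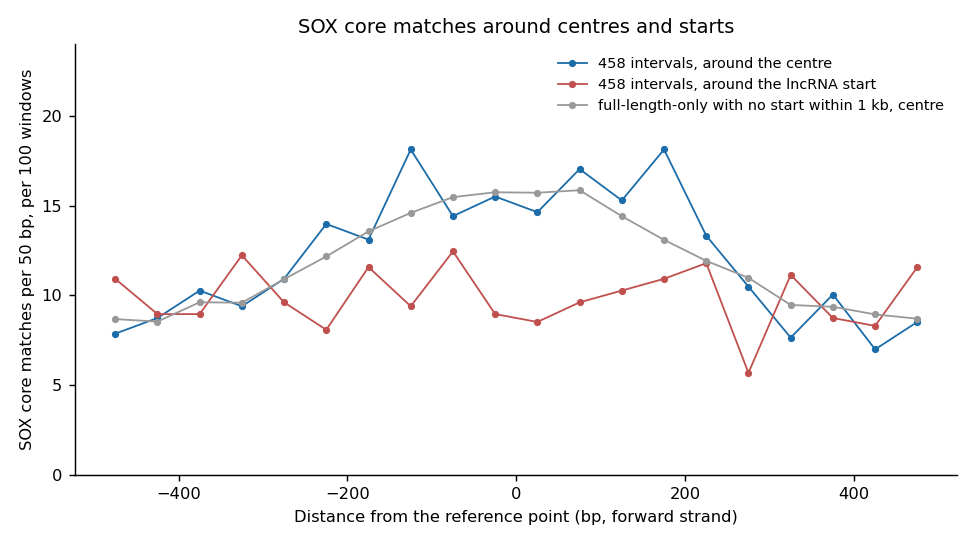
SOX core matches per 50 bp and 100 windows (y axis) by distance in bp (x axis) from the centres of the 458 intervals (blue), from their lncRNA starts (red) and from the centres of full-length-only intervals with no start within 1 kb (grey). The blue and grey lines are higher within 200 bp of 0 than at 300 to 500 bp. The blue line averages 15.8 within 200 bp, and its highest steps, of 18.1, start at -150 and 150 bp. The red line averages 10.2 within 200 bp, with steps from 5.68 to 12.4.

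Sites closest to a start had the core more often. It was present in 55.2% of the 105 windows within 250 bp of the start and in 39.0% of the 123 at 750 to 1000 bp, a difference of 16.2 points (3.22 to 28.5), one of 7 differences taken among subsets of the 458. Upstream and downstream sites had 49.6% and 40.9%, a difference of 8.67 points whose interval (-0.449 to 17.6) includes 0. In 4 classes of equal size by total signal the share was 39.1%, 44.7%, 46.5% and 51.3% from the lowest to the highest, and the difference between the outer classes was 12.2 points (-0.668 to 24.5).

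The longer SOX sequence AACAATG was in 11.4% of the windows (8.76 to 14.6), beside 8.55% of all full-length-only intervals and 3.25% of lncRNA starts. It exceeded the share in shared intervals at lncRNA starts, 6.61% (16 of 242 windows), by 4.74 points (0.0962 to 8.83). That lower limit is small, and the same difference was taken for all 8 motifs. Among all shared intervals 9.48% had the longer sequence, above the 8.55% of all full-length-only intervals. The excess over shared intervals was therefore not seen between the whole classes. The AP-1 motif TGACTCA, read by FOS and JUN proteins, differed most, among the 8 motifs, between full-length-only and shared intervals at lncRNA starts. It was in 30 of the 458 windows (6.55%, 4.63 to 9.20), beside 6.59% of all full-length-only intervals and 21.1% (16.4 to 26.6) of shared intervals at lncRNA starts. The difference from the shared intervals was -14.5 points (-20.4 to -9.16). Over all shared intervals 16.9% had the motif, so the gap was not particular to lncRNA starts. All lncRNA starts had it in 4.92%.

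The TATA-like sequence TATAAA was in 134 windows (29.3%, 25.3 to 33.6), beside 31.6% of all full-length-only intervals, 10.2% of lncRNA starts and 21.5% of shared intervals at lncRNA starts. It is itself rich in A and T, and the sets differ in GC content. The octamer ATGCAAAT was in 3.06% beside 3.04% of all full-length-only intervals, the forkhead sequence TGTTTAC in 5.24% beside 4.31%, the TEAD sequence GGAATG in 17.0% beside 15.5%, and the RUNX sequence TGTGGTT in 3.93% beside 5.61%. All were searched on both strands, and a match is a description of the letters, not a measured contact.

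**Figure D5:**
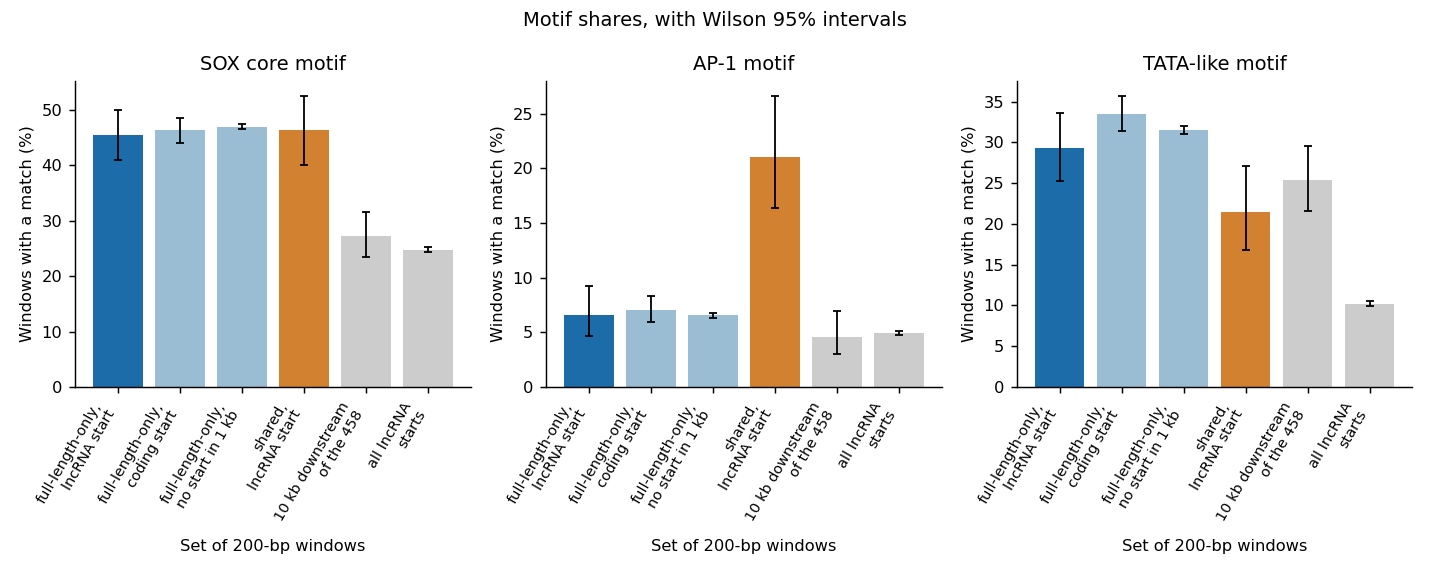
Bars give the percent of 200-bp windows with a SOX core, AP-1 or TATA-like match (y axes), with Wilson 95% intervals, for the 458 intervals (dark blue), other full-length-only intervals (light blue), shared intervals at lncRNA starts (orange) and comparison windows (grey). The SOX core is at 45.4% in the 458 and 46.3% in the shared intervals, and AP-1 at 6.55% and 21.1%. The windows labelled 10 kb downstream lie towards higher coordinates, whatever the strand of the gene.

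In size and signal the 458 lay close to other full-length-only intervals. Their median width was 556 bp (quartiles 432.25 and 718.75), against 559 bp with no start within 1 kb, and the median totals were 2203.5 and 2282. Of the 458, 218 (47.6%, 43.1 to 52.2) were in the upper 50% of all full-length-only intervals by total signal. Shared intervals at lncRNA starts were narrower, with a median of 355.5 bp and a total of 2633.5, but the group in which a shared interval was measured is not stated. An interval of the down-sampled SOX2 list overlapped 300 of the 458 (65.5%, 61.0 to 69.7), beside 64.3% of all full-length-only intervals. That list belongs to the same sample, so its overlap is not replication, and how it was thinned is not given in the sources used here.

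Protein-coding genes covered fewer of these sites than of full-length-only intervals at large. The centre lay inside a coding gene in 178 cases (38.9%, 34.5 to 43.4), beside 63.0% of all full-length-only intervals, and beside 33.9% of shared intervals at lncRNA starts. The choice of sites near lncRNA starts and away from coding starts bears on this share. Of the 178, 110 lay in a gene on the opposite strand to the lncRNA, 58 in one on the same strand and 10 in genes on both strands. Sites inside and outside coding genes had the SOX core in 45.5% and 45.4%. The down-sampled list found 59.6% of those inside and 69.3% of those outside, a difference of -9.74 points (-18.7 to -0.800). A lncRNA exon held 83 centres (18.1%), beside 0.972% of all full-length-only intervals, a share that the rule itself raises.

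The median distance to the nearest coding start was 31500 bp, and 73 sites lay within 5 kb of one. Another SOX2 interval lay at a median of 8200.5 bp, and 255 sites (55.7%) had one within 10 kb. The lncRNA gene, with 1 kb on each side, held another full-length-only interval in 212 cases and a shared interval in 131. Sites were most numerous on chromosome 2, with 56. Per 1000 lncRNA starts chromosome 18 had 17.0, chromosome 2 had 16.9 and chromosome 12 had 16.7, while chromosomes 19 and 22 had 4.17 and 1.39. As a share of the chromosome's full-length-only intervals the order differed, with 2.18% on chromosome 19, 1.29% on chromosome 2 and 0.351% on chromosome 22. Both measures rest on 5 sites for chromosome 19 and on 1 site for chromosome 22.

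Repeated sequence was scarce. No 31-mer of the interval occurred elsewhere in the genome in 326 of the 458 (71.2%). This held for 63.7% of full-length-only intervals with no start within 1 kb and 79.0% of those at coding starts. It held for 82.7% of 237 shared intervals at lncRNA starts. More than 50% of the 31-mers were repeated in 3 of the 458 (0.655%, 0.223 to 1.91), beside 1.66% of full-length-only intervals with no start within 1 kb, a value inside that interval.

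At the same kind of start, full-length-only intervals were a smaller part of their class than shared ones. The 242 shared intervals at lncRNA starts were 1.69% of the shared class (1.49 to 1.92), and the difference was -0.642 points (-0.885 to -0.419). At coding starts the shares were 4.15% and 5.05%. The sites of the 2 classes at lncRNA starts had SOX core shares -0.866 points apart (-8.60 to 6.82) and differed in AP-1, width and base composition, with a median GC content of 33.5% against 35.5%. All shared intervals, wherever they lay, had AP-1 in 16.9%, a median width of 373 bp and a median GC content of 35%.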

How the data were processed

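The authors deposited peak lists of positions in hg19 for replicate 1 of each group. Column 4 of the SOX2 and SOX2-DBD lists was taken as the total signal and column 5 as the maximum signal per interval, from the layout of SEACR, as the authors deposited them. A seventh column, a score of unstated meaning in the deposited SOX2 list, occurred only in rows identical to the SOX2-DBD list. The submitters' processing notes name Bowtie2 2.3.4.1, SAMtools, bedtools 2.27.1, SEACR 1.3, deepTools 3.5.0 and hg19. Parameters, thresholds, normalization and depth are not given in the sources used here. The totals are not counts, so no counting error is given for them. Shares, densities and density ratios carry intervals for counting error over sites.

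Repeated rows were counted once (59561 rows, 57907 intervals). Centres were set against GENCODE release 44 mapped to GRCh37. In all, 8 motifs were searched in 200-bp windows. The intervals named were the 8 highest in total signal, the 3 nearest to a start, those beside each 1 kb limit, the 3 with the most SOX cores, the genes with the most intervals (up to 5), those of 3 lncRNA lists (30 neural and pluripotency, 31 mesenchymal and fibroblast and 39 widely expressed names, of which 26, 29 and 34 were annotated), and windows with SOX core and octamer. Some sequences of the intervals named are not reported here. Intervals, lists and comparisons were chosen with earlier results of these data known. Alternatives covered the window, the annotation, the motif, the signal, repeats and GC content. On simulated data, 932 of 932 planted intervals and 468 of 468 planted motif windows were recovered. Analyses used python 3.11.15 (scipy 1.17.1, numba 0.67.0, numpy 2.4.6, matplotlib 3.10.9, pyfaidx 0.9.0.4 and pandas 2.3.3).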

Additional observations from a re-analysis of the deposited data

How the results depend on the processing

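The number of full-length-only intervals at lncRNA starts, 458, became 216 with a window of 500 bp, 958 with 2000 bp and 218 in the upper 50% by total signal, and was 315 to 586 under the other 8 alternatives. The share with a SOX core, 45.4%, was 50% in the upper 50% by signal, 24.7% in 100-bp windows, 81.9% over whole intervals and 11.4% for the longer SOX sequence. The AP-1 share, 6.55%, was 3.28% in 100-bp windows and 17.7% over whole intervals. The median width of 556 bp was 725 bp in the upper 50% by signal and 539 bp without intervals holding a repeated 31-mer. Requiring 50% of the interval to be covered gave 56.6% found in the down-sampled list. The share inside coding genes, 38.9%, was 49.2% with starts of gene records and 32.2% more than 5 kb from coding starts. The median GC content was 33.5 to 34.0% under all alternatives run. At 30 to 40% GC the density ratios within 250 bp and within 1 kb of a start were 0.938 and 0.997 for full-length-only intervals and 2.37 and 1.59 for shared ones, against 0.590, 0.707, 1.52 and 1.16 over all bases. These ratios pool everything beyond 1 kb, where the density at 30 to 40% GC was uneven, as given above. The remaining 69 values moved by less than their 95% interval or, for numbers, by less than 1.5 times. The repeat, single-interval-per-gene and GC alternatives were chosen after seeing the data. No paired analysis was possible because only lists of replicate 1 were analysed, and for the same reason no replicate could be left out. The unknown depth and signal scale limit comparisons to positions and to signal within the SOX2 list.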
